A study of Mus musculus with 6 samples.

Results

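The type I interferon antiviral genes are a set of 34 genes named by symbol, of 55487 genes in the deposited expression table. All 34 had a row, and all 34 were expressed above the minimum for testing, a mean log2 RPKM above -2. They were followed in RNA from whole small intestine, in 3 libraries of wild-type mice (WT) and 3 of Lgr5-2A-DTR mice (DTR), all C57BL/6 adults of more than 8 weeks. Both groups were given 20 µg of diphtheria toxin per kg on each of 4 days and were collected 6 h after the last dose. The DTR allele places a diphtheria toxin receptor at Lgr5, a gene that marks stem cells of the crypt base, so the toxin ablates Lgr5-positive cells in DTR but not in WT mice. Levels are given as RPKM, read numbers relative to the length of the gene and the depth of the library, which allows comparison between genes of different length.

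Type I interferons are secreted proteins that cells release after sensing viral nucleic acid. They bind the receptor pair Ifnar1 and Ifnar2, and the kinases Jak1 and Tyk2 then activate Stat2, which acts with Irf9 at interferon-stimulated response elements in the promoters of antiviral genes. Gut epithelial cells respond above all to the type III interferons, which use the receptor Ifnlr1 with Il10rb and reach the same Stat2 and Irf9 step. Interferon-γ, made mainly by lymphocytes, uses a different receptor and drives guanylate-binding proteins, immunity-related GTPases and antigen processing genes.

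Libraries held 61404574 to 76596766 reads in genes. Lgr5, the check on ablation, was read 315, 254 and 229 times across the WT libraries, against 22, 0 and 34 times across the DTR libraries (two-sided exact permutation test on RPKM, p = 0.1, the smallest that 3 against 3 libraries allow). The groups also differed in Xist, the RNA of the inactive X chromosome of female cells, with 16 to 38 reads per WT library and 22432 to 24279 per DTR library, so genotype and this sex pattern cannot be told apart. Epithelial markers summed to 4735 to 5239 RPKM in WT and 4744 to 6549 RPKM in DTR. Of the 9 markers, all tested, Krt18 rose (log2 change 1.27, SE 0.16, limma adjusted p = 0.0106). Vil1 fell (log2 change -0.85, SE 0.22, limma adjusted p = 0.0426). In DTR, 4 of the 9 lay entirely above WT (44.4%, against 25.1% of all tested genes) and 1 entirely below (11.1%, against 22.6%). In whole tissue, fewer cells of a type and less RNA per cell cannot be told apart.

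Among the 34 antiviral genes, 6 fell in DTR and none rose in limma at an adjusted p of 0.05. The genes that fell were Trim30d, Zbp1, Ddx58, Mx1, Ifit2 and Trim30a, by 1.84-fold to 3.24-fold. Fold values throughout are unlogged log2 changes and differ from the ratios of the mean RPKM printed beside them. Of all 15563 tested genes, 8.74% were called lower and 9.54% higher, 18.3% in either direction, against 17.6% of the antiviral genes in either direction. The share of antiviral genes that changed is therefore close to the background, while all 6 calls lie on the lower side. At an unadjusted p of 0.05, 14 were lower and 0 higher, where 2883 of all 15563 tested genes were lower and 3154 higher. With limma's voom on recovered reads, 10 were called lower and 0 higher. These 10 were 29.4% of the antiviral genes, against 11.1% of all tested genes called lower with voom. The median log2 change of the 34 was -0.49, against 0.031 for all tested genes, with 23 estimates below 0 and 11 above. DTR libraries lay entirely below WT libraries for 14 of the 34 (22.6% of all tested genes), and entirely above for Irf9 alone (25.1% of all tested genes). None of the 6 calls held when any of WT replicates 1, 2 or 3 was left out, where the counts over all genes were also far smaller. Without DTR replicate 3 only Trim30d was called, where 3.36% of all tested genes were called lower. Without DTR replicate 1, 11 antiviral genes were called lower (32.4%), against 17.6% of all tested genes.

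**Figure D1:**
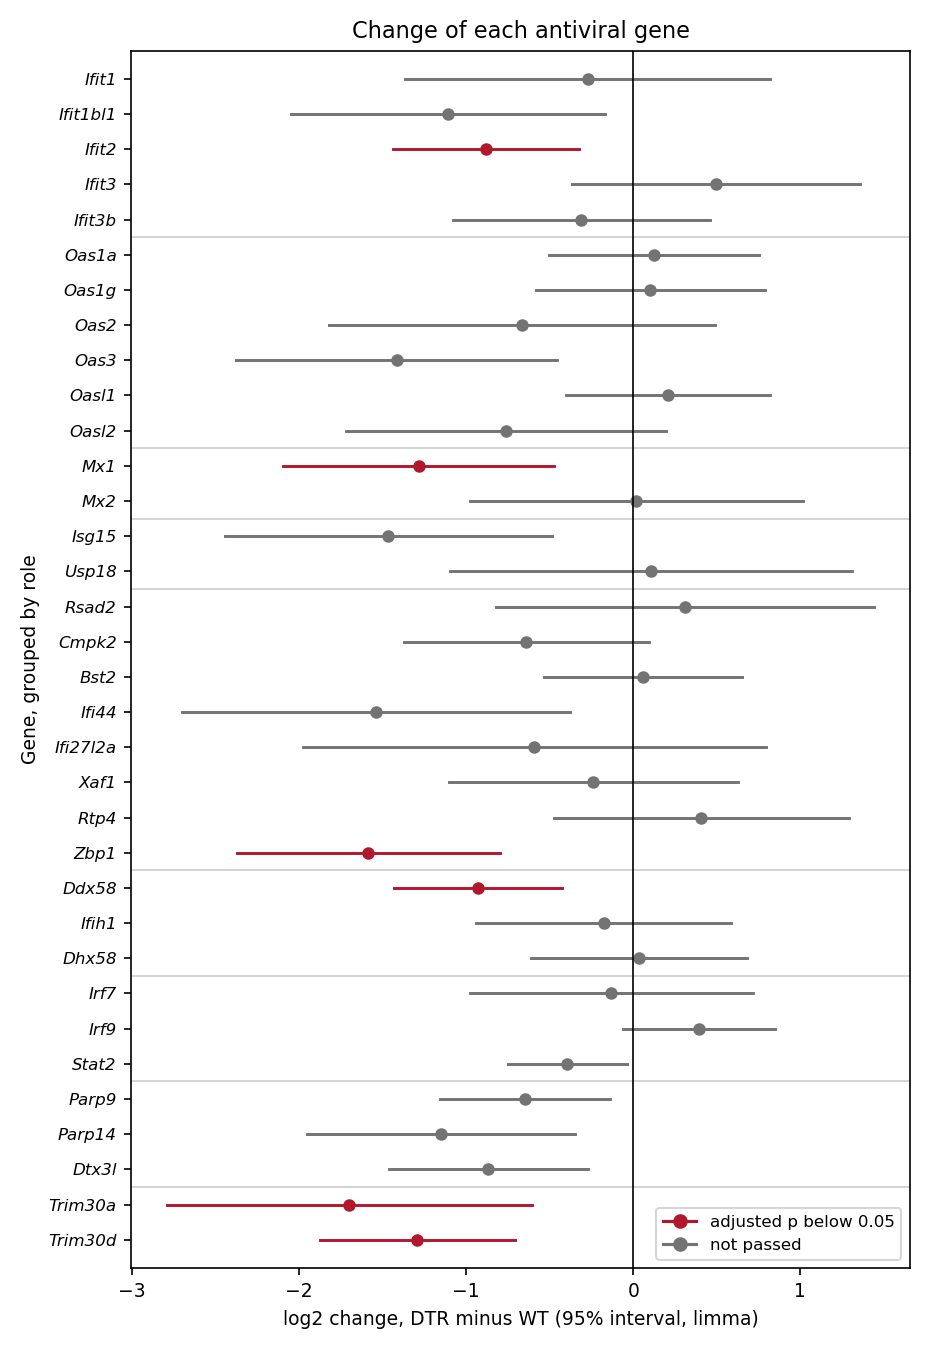
Log2 change of each of the 34 antiviral genes, DTR minus WT, on the horizontal axis, with the limma estimate as a point and its 95% interval as a line, grouped by role. The 6 genes with an adjusted p below 0.05, in red, all lie below 0, and the estimates run from -1.70 for Trim30a to 0.49 for Ifit3.

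Of the 3 cytosolic RNA sensors, Ddx58 fell and the others did not pass, a difference between genes that was not tested. Ddx58, which encodes RIG-I, a sensor of viral RNA with triphosphate ends (chromosome 4, 40203773 to 40239828, minus strand, GRCm38), stood at 10.03, 9.99 and 13.1 RPKM in WT replicates 1, 2 and 3 and at 6.86, 6.25 and 4.45 RPKM in DTR replicates 1, 2 and 3. All DTR values lay below all WT values. Its mean was 11.04 ± 1.78 RPKM over the WT libraries and 5.85 ± 1.26 RPKM over the DTR libraries (mean ± SD, n = 3 per group), 1.90-fold lower (log2 change -0.93, SE 0.21; limma adjusted p = 0.0330). Ifih1, which encodes the long double-stranded RNA sensor MDA5, stood at 12.2, 12.3 and 15.6 RPKM in WT replicates 1, 2 and 3 and at 11.2, 18.6 and 7.74 RPKM in DTR replicates 1, 2 and 3. DTR replicate 2 was the highest of all libraries and DTR replicate 3 the lowest, and the groups overlapped (log2 change -0.18, 95% interval -0.94 to 0.59; limma adjusted p = 0.702). Dhx58, which encodes the regulator LGP2, ran from 3.11 to 5.54 RPKM in WT and from 3.23 to 4.73 RPKM in DTR and did not pass (log2 change 0.034, 95% interval -0.61 to 0.68; limma adjusted p = 0.936). Zbp1, a sensor of Z-form nucleic acid that can start necroptosis (chromosome 2, 173206612 to 173218923, minus strand), stood at 9.89, 11.4 and 21.9 RPKM in WT replicates 1, 2 and 3 and at 4.22, 5.71 and 3.79 RPKM in DTR replicates 1, 2 and 3. WT replicate 3 was well above the other WT libraries, and the groups did not overlap. The mean of Zbp1 was 14.4 ± 6.54 RPKM over the WT libraries and 4.58 ± 1.00 RPKM over the DTR libraries (mean ± SD, n = 3 per group), 3.00-fold lower (log2 change -1.59, SE 0.33; limma adjusted p = 0.0277).

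The transcription factors that carry the signal did not pass. Stat2 stood at 12.6, 13.3 and 14.9 RPKM in WT replicates 1, 2 and 3 and at 12.02, 10.1 and 9.05 RPKM in DTR replicates 1, 2 and 3. Each DTR library was below each WT library, by a small margin (log2 change -0.39, 95% interval -0.75 to -0.039; limma adjusted p = 0.102). Irf9, the DNA-binding partner of Stat2, stood at 12.7, 12.02 and 13.5 RPKM in WT replicates 1, 2 and 3 and at 13.8, 21.9 and 15.4 RPKM in DTR replicates 1, 2 and 3. It was the antiviral gene with every DTR library above every WT library, with the highest value in DTR replicate 2, and it did not pass (log2 change 0.39, 95% interval -0.064 to 0.85; limma adjusted p = 0.174). Irf7, the factor that amplifies interferon-α production, was abundant, at 34.8, 34.97 and 42.9 RPKM in WT replicates 1, 2 and 3 and at 36.2, 54.7 and 20.01 RPKM in DTR replicates 1, 2 and 3. The DTR libraries lay on both sides of the WT libraries, and the estimate was near 0 (log2 change -0.13, 95% interval -0.98 to 0.71; limma adjusted p = 0.802). Exons of Irf9 share 123 bases with Rnf31 on the same strand, and those of Irf7 share 45 bases with Phrf1 on the other strand, reads which the deposited counts may split or mix.

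The IFIT genes, whose products bind foreign RNA and block its translation, lie together on chromosome 19, and 1 of the 5, Ifit2, fell while the others did not pass. Ifit2 (chromosome 19, 34550694 to 34576419, plus strand) stood at 1.98, 1.42 and 2.10 RPKM in WT replicates 1, 2 and 3 and at 0.916, 1.15 and 0.894 RPKM in DTR replicates 1, 2 and 3. All DTR values were below all WT values at these low levels. Its mean was 1.83 ± 0.359 RPKM over the WT libraries and 0.987 ± 0.142 RPKM over the DTR libraries (mean ± SD, n = 3 per group), 1.84-fold lower (log2 change -0.88, SE 0.23; limma adjusted p = 0.0463). Ifit1 stood at 26.1, 27.3 and 49.7 RPKM in WT replicates 1, 2 and 3 and at 26.7, 48.7 and 15.4 RPKM in DTR replicates 1, 2 and 3. WT replicate 3 and DTR replicate 2 were the high libraries, and the groups overlapped (log2 change -0.27, 95% interval -1.36 to 0.82; limma adjusted p = 0.679). Ifit1bl1, a copy of Ifit1 in mouse, stood at 31.8, 29.98 and 79.5 RPKM in WT replicates 1, 2 and 3 and at 16.5, 24.3 and 18.9 RPKM in DTR replicates 1, 2 and 3. No DTR library reached the lowest WT library, yet the spread within WT was wide and the gene did not pass (log2 change -1.11, 95% interval -2.05 to -0.17; limma adjusted p = 0.0902). Ifit3 stood at 10.8, 13.2 and 16.9 RPKM in WT replicates 1, 2 and 3 and at 18.3, 31.01 and 11.9 RPKM in DTR replicates 1, 2 and 3 and had the highest estimate of the 34 genes without passing (log2 change 0.49, 95% interval -0.37 to 1.36; limma adjusted p = 0.337). Ifit3b ran from 1.83 to 2.57 RPKM in WT and from 1.18 to 2.64 RPKM in DTR (limma adjusted p = 0.496). Ifit3 and Ifit3b are near-identical, with 51.2% of the stretches of 50 bases in the longest Ifit3 transcript also found in Ifit3b, so the split of reads between them is uncertain.

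The 6 OAS and OAS-like genes belong to a family named for enzymes that make short adenylate chains, which activate RNase L. None of the 6 passed in limma (1 lower and 0 higher at an unadjusted p of 0.05, and 1 lower, Oas3, with voom). Oas3, the largest of the family, stood at 8.54, 8.99 and 12.5 RPKM in WT replicates 1, 2 and 3 and at 4.78, 5.36 and 1.96 RPKM in DTR replicates 1, 2 and 3. All DTR libraries were below all WT libraries, with DTR replicate 3 lowest, and the change was just outside the threshold (log2 change -1.42, SE 0.40; limma adjusted p = 0.0539). Oas1a stood at 12.8, 14.3 and 23.6 RPKM in WT replicates 1, 2 and 3 and at 19.1, 20.2 and 14.5 RPKM in DTR replicates 1, 2 and 3. Oas1g ran from 6.14 to 11.7 RPKM, both ends being WT libraries. The groups overlapped for both (limma adjusted p = 0.744 and 0.809), and 57.6% of the Oas1a stretches of 50 bases also occur in Oas1g, so these 2 genes cannot be fully separated. Oas2 (log2 change -0.67; limma adjusted p = 0.334) and Oasl2 (-0.76; 0.200) had DTR replicate 3 as the lowest of the 6 libraries. Oasl1, known in mouse to repress Irf7 translation, was the most abundant of the family at 49.9, 48.5 and 65.96 RPKM in WT replicates 1, 2 and 3 and at 43.9, 68.96 and 81.05 RPKM in DTR replicates 1, 2 and 3. Here DTR replicate 3 was the highest of the 6 libraries, the reverse of Oas3, and the groups overlapped (log2 change 0.21, 95% interval -0.40 to 0.82; limma adjusted p = 0.569).

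Of the MX and ISG15 system genes, Mx1 fell, and Mx2, Isg15 and Usp18 did not pass. Mx1, a GTPase known to block influenza virus (chromosome 16, 97447035 to 97462907, minus strand), carries a deletion in C57BL/6 mice that leaves no working protein, so here it reports on transcripts only. Mx1 stood at 2.48, 2.15 and 2.66 RPKM in WT replicates 1, 2 and 3 and at 1.18, 1.38 and 0.600 RPKM in DTR replicates 1, 2 and 3. Every DTR library was below every WT library. The mean of Mx1 was 2.43 ± 0.256 RPKM over the WT libraries and 1.05 ± 0.406 RPKM over the DTR libraries (mean ± SD, n = 3 per group), 2.43-fold lower (log2 change -1.28, SE 0.34; limma adjusted p = 0.0457). Mx2 stood at 1.09, 0.972 and 1.32 RPKM in WT replicates 1, 2 and 3 and at 0.811, 2.15 and 0.833 RPKM in DTR replicates 1, 2 and 3. DTR replicate 2 was above all other libraries and the other DTR libraries below all WT libraries, and the groups overlapped (log2 change 0.018, 95% interval -0.98 to 1.01; limma adjusted p = 0.979). Isg15, a ubiquitin-like protein attached to other proteins, stood at 49.4, 45.6 and 95.6 RPKM in WT replicates 1, 2 and 3 and at 27.1, 29.2 and 12.96 RPKM in DTR replicates 1, 2 and 3. The groups did not overlap and the change was 2.76-fold, but WT replicate 3 was far above the other WT libraries and Isg15 fell just outside the threshold (log2 change -1.46, SE 0.41; limma adjusted p = 0.0517). Usp18, the protease that removes Isg15 and restrains the receptor, stood at 5.71, 6.204 and 11.6 RPKM in WT replicates 1, 2 and 3 and at 8.60, 14.6 and 4.09 RPKM in DTR replicates 1, 2 and 3. The highest value was in DTR replicate 2 and the lowest in DTR replicate 3, and the interval was wide (log2 change 0.11, 95% interval -1.10 to 1.31; limma adjusted p = 0.891).

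Among the other effectors, the neighbours Rsad2 and Cmpk2 on chromosome 12 did not pass. Rsad2, which encodes viperin, an enzyme that makes a chain-terminating nucleotide, stood at 3.72, 5.02 and 9.40 RPKM in WT replicates 1, 2 and 3 and at 3.83, 9.89 and 8.82 RPKM in DTR replicates 1, 2 and 3. Low and high libraries occurred in both groups (log2 change 0.31, 95% interval -0.82 to 1.44; limma adjusted p = 0.650). Cmpk2, a mitochondrial nucleotide kinase, had a log2 change of -0.64 (limma adjusted p = 0.168). Bst2, or tetherin, which holds budding virions at the cell surface, stood at 17.8, 22.8 and 28.05 RPKM in WT replicates 1, 2 and 3 and at 19.5, 31.8 and 20.8 RPKM in DTR replicates 1, 2 and 3. The groups overlapped, with the lowest value in WT and the highest in DTR (log2 change 0.059, 95% interval -0.53 to 0.65; limma adjusted p = 0.878). Rtp4 stood at 12.6, 13.3 and 21.2 RPKM in WT replicates 1, 2 and 3 and at 19.95, 32.4 and 12.9 RPKM in DTR replicates 1, 2 and 3, highest in DTR replicate 2 (limma adjusted p = 0.437). Exons of Rtp4 share 296 bases with Gm45338 on the same strand, so reads there may be split or mixed. Ifi27l2a had its highest value, 45.3 RPKM, and its lowest, 9.28 RPKM, both in DTR (limma adjusted p = 0.473). Xaf1, a pro-apoptotic partner of XIAP, did not pass (log2 change -0.24, 95% interval -1.10 to 0.62; limma adjusted p = 0.646). Ifi44 was the scarcest member, with 178, 137 and 406 reads over the WT libraries and 96, 44 and 68 over the DTR libraries, by replicate number. It did not overlap between groups and did not pass (log2 change -1.54, SE 0.48; limma adjusted p = 0.0692).

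Parp9, Parp14 and Dtx3l, which act on ADP-ribose and ubiquitin marks, were lower in every DTR library than in any WT library without passing. Parp9 and Dtx3l form a complex, and their genes start head to head on chromosome 16 with 458 exonic bases in common on opposite strands. Parp9 stood at 17.97, 17.3 and 22.9 RPKM in WT replicates 1, 2 and 3 and at 14.7, 13.5 and 9.35 RPKM in DTR replicates 1, 2 and 3. Dtx3l stood at 12.4, 10.9 and 14.6 RPKM in WT replicates 1, 2 and 3 and at 8.81, 7.59 and 4.85 RPKM in DTR replicates 1, 2 and 3. Parp14, a mono-ADP-ribosyltransferase encoded on the same chromosome, stood at 19.5, 15.1 and 21.2 RPKM in WT replicates 1, 2 and 3 and at 12.3, 9.19 and 5.05 RPKM in DTR replicates 1, 2 and 3. For all 3 genes no DTR library reached the lowest WT library, which also held for 22.6% of all tested genes. DTR replicate 3 was the lowest of the 6 libraries for each of the 3. The limma adjusted p was 0.0757 for Parp9, 0.0551 for Dtx3l and 0.0574 for Parp14, with log2 changes of -0.65, -0.87 and -1.15.

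Both TRIM30 genes fell. Trim30d (chromosome 7, 104470014 to 104507849, minus strand) stood at 41.8, 44.2 and 46.7 RPKM in WT replicates 1, 2 and 3 and at 25.2, 18.2 and 12.8 RPKM in DTR replicates 1, 2 and 3. It had the tightest WT values of the 6 called genes and the smallest adjusted p. Its mean was 44.2 ± 2.41 RPKM over the WT libraries and 18.7 ± 6.22 RPKM over the DTR libraries (mean ± SD, n = 3 per group), 2.45-fold lower (log2 change -1.29, SE 0.24; limma adjusted p = 0.0230). Trim30a, a ubiquitin ligase known in mouse to restrain Toll-like receptor signalling (chromosome 7, 104409025 to 104465193, minus strand), stood at 5.13, 6.03 and 8.90 RPKM in WT replicates 1, 2 and 3 and at 3.82, 1.85 and 1.14 RPKM in DTR replicates 1, 2 and 3. DTR replicate 1 lay closest to WT and DTR replicate 3 farthest. The mean of Trim30a was 6.69 ± 1.97 RPKM over the WT libraries and 2.27 ± 1.39 RPKM over the DTR libraries (mean ± SD, n = 3 per group), 3.24-fold lower (log2 change -1.70, SE 0.46; limma adjusted p = 0.0481). Only 6.53% of the Trim30a stretches of 50 bases occur in Trim30d, a small share beside that of the Ifit3 and Oas1a pairs.

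**Figure D2:**
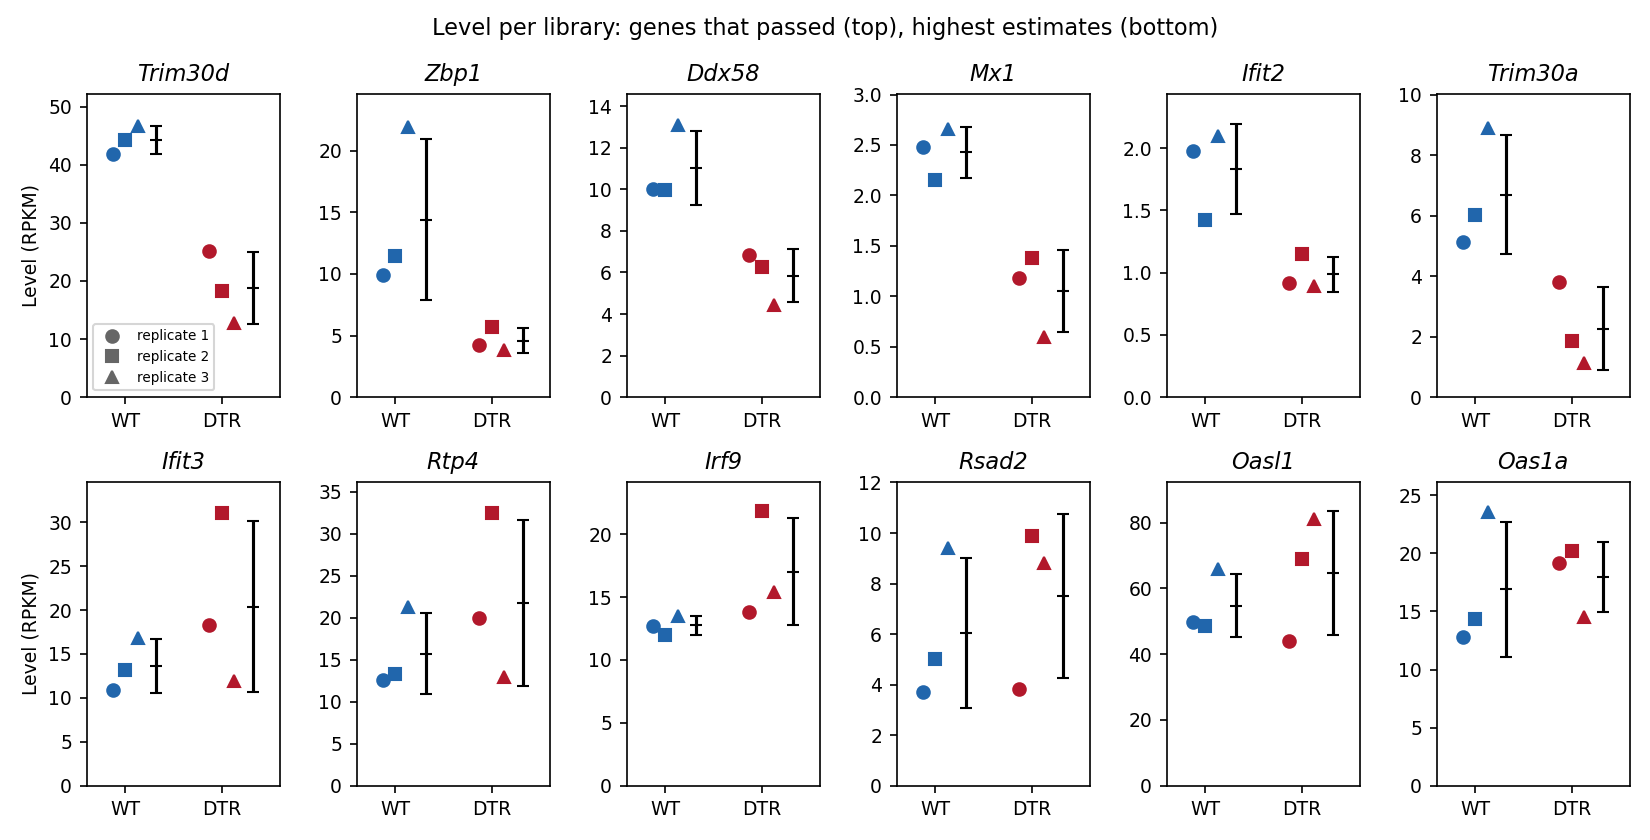
Level in RPKM (vertical axis, from 0) in each library for the 6 antiviral genes that passed (top row) and the 6 with the highest estimates (bottom row), none of which passed. Symbols mark replicates 1, 2 and 3, and the black marks show mean and SD (n = 3 each). In the top row no DTR point reaches a WT point, while in the bottom row the groups overlap for every gene except Irf9.

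Promoter sequences of the antiviral genes are shown because the response element that Irf9 and Stat2 act on is what the set is known to share. RefSeq promoters on GRCm38.p6, 250 bases before to 50 after a start site, were at hand for 24 of the 34 genes, 4 of them with a second start. The core of this element, spelled GAAA, any 2 bases (NN) and GAAA, was searched on both strands and was present in 17 of their 28 promoters (60.7%), against 3.44% of all 32851 promoters of the same length. It was also present in 12 of 24 promoters (50%) of the interferon-γ target genes, and in 23 of 76 (30.3%) of the other interferon-stimulated genes. The interferon-γ element TTCNNNGAA, which reads the same on both strands, was present in 3 of the 28 (10.7%), against 8.30% of all and 33.3% for the interferon-γ target genes. Matches of the core can overlap each other. Of the 4 genes that fell and have a promoter here, 3 held the core, and so did 12 of the 20 that did not pass. Printed 5′ to 3′ on the strand of the gene, with core matches in capitals (on the other strand the core reads TTTC, NN, TTTC), are 4 genes that fell, Trim30a at chr7:104465144-104465443 (minus strand), Trim30d at chr7:104507800-104508099 (minus strand), Ddx58 at chr4:40239776-40240075 (minus strand) and Ifit2 at chr19:34550444-34550743 (plus strand), and 3 that did not pass, Isg15 at chr4:156200769-156201068 (minus strand), Ifit1 at chr19:34640639-34640938 (plus strand) and Ifit3 at chr19:34583279-34583578 (plus strand).
Trim30a: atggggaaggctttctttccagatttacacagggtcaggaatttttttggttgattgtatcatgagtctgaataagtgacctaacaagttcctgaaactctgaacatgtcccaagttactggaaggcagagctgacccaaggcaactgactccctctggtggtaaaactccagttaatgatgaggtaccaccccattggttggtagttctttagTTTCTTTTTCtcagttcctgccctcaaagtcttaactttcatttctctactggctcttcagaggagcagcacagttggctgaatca
Trim30d: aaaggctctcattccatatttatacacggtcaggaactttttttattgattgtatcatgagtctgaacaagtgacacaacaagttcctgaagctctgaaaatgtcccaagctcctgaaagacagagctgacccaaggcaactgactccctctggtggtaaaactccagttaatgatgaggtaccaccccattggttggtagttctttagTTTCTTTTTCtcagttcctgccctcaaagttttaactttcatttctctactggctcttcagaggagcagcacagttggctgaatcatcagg
Ddx58: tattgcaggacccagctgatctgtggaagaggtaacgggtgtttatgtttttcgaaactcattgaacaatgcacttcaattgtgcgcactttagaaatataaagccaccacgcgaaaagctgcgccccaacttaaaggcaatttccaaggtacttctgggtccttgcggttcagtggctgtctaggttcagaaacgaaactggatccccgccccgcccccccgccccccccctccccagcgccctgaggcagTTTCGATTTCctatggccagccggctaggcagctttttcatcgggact
Ifit2: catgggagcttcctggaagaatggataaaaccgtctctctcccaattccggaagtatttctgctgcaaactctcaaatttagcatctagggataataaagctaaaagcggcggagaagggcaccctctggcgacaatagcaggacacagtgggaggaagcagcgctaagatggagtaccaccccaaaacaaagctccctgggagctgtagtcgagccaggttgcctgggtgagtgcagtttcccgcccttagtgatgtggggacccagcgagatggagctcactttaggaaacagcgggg
Isg15: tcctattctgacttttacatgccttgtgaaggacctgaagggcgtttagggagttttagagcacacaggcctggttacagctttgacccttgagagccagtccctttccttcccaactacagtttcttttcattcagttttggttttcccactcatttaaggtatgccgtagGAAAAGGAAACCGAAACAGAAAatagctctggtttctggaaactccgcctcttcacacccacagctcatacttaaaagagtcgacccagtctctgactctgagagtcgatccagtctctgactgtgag
Ifit1: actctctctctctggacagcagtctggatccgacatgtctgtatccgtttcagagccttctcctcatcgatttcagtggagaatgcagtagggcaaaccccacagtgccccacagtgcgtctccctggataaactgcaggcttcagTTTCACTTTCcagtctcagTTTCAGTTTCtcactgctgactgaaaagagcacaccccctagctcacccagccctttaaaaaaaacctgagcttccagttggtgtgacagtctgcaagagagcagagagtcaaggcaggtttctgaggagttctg
Ifit3: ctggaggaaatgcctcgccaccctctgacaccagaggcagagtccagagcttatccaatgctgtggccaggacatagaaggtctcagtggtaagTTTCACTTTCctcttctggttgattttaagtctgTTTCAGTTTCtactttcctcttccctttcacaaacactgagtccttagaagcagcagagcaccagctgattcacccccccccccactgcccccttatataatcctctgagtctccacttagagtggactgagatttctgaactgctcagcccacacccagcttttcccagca
Trim30a and Trim30d share 277 of the 300 bases when aligned, including the core TTTCTTTTTC at -31 and -36 bases from the start, and both genes fell. Ifit1 and Ifit3 carry the same pair of cores, TTTCACTTTC and TTTCAGTTTC, and neither gene passed. In Isg15 the 3 matches overlap in a run. The window of Ifit2 holds no match to these letters. A match is only a description of the sequence.

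**Figure D3:**
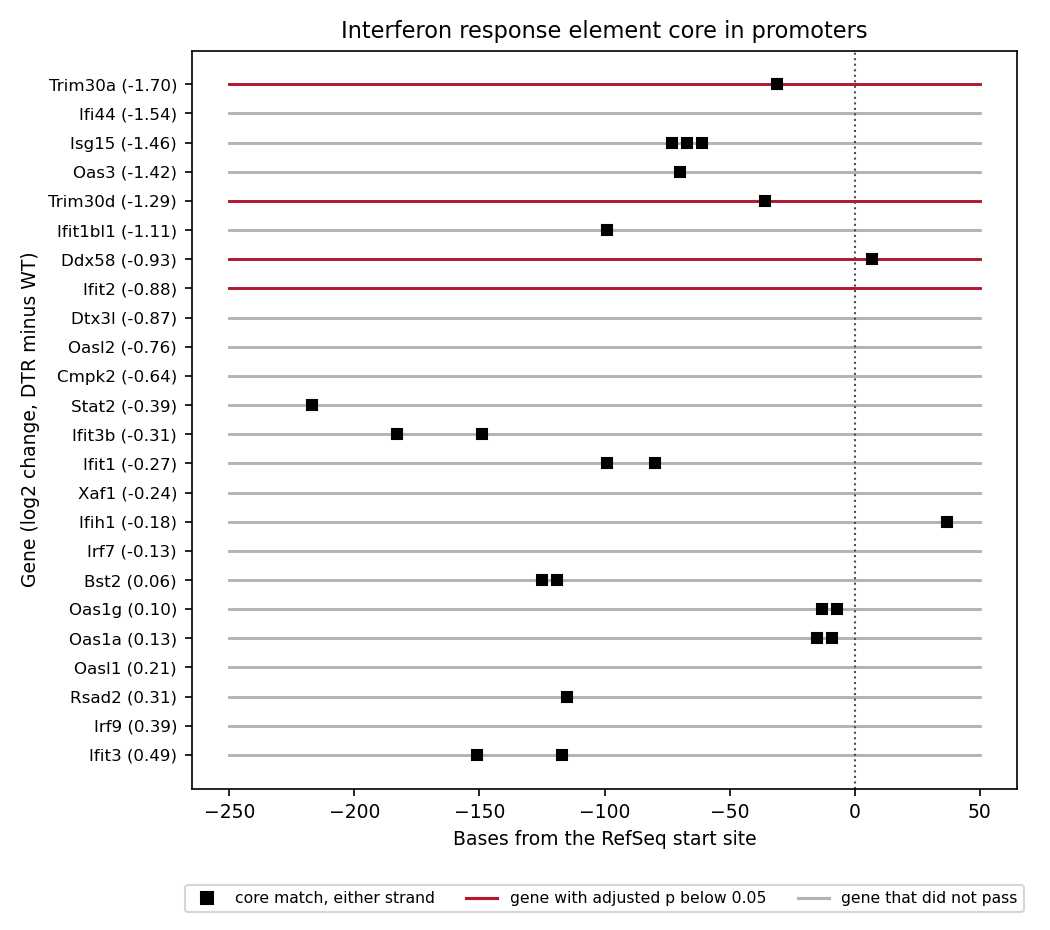
Position of matches to the interferon-stimulated response element core (black squares, either strand) relative to the RefSeq start site, in bases, for the 24 antiviral genes with a promoter sequence, 1 start per gene, ordered by log2 change. Red lines mark the 4 genes here with an adjusted p below 0.05, and 3 of those 4 carry a match.

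Much of the spread of the antiviral genes lay between libraries of the same group. WT replicate 3 was the highest WT library for 33 of 34 antiviral genes, against 37.5% of all tested genes. DTR replicate 3 was the lowest DTR library for 27 of 34 (26.1% of all tested genes), and DTR replicate 2 the highest for 22 of 34 (33.0%). Across all 6 libraries, 21 genes peaked in WT replicate 3 and 11 in DTR replicate 2, the latter being Ifit3, Mx2, Usp18, Rsad2, Bst2, Ifi27l2a, Xaf1, Rtp4, Ifih1, Irf7 and Irf9. The median difference from the WT mean was -0.35 in DTR replicate 1, -0.22 in DTR replicate 2 and -1.03 in DTR replicate 3, on the log2 RPKM scale. The median SD of log2 RPKM over the 34 genes was 0.33 in WT and 0.61 in DTR, against 0.15 and 0.37 over all tested genes.

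**Figure D4:**
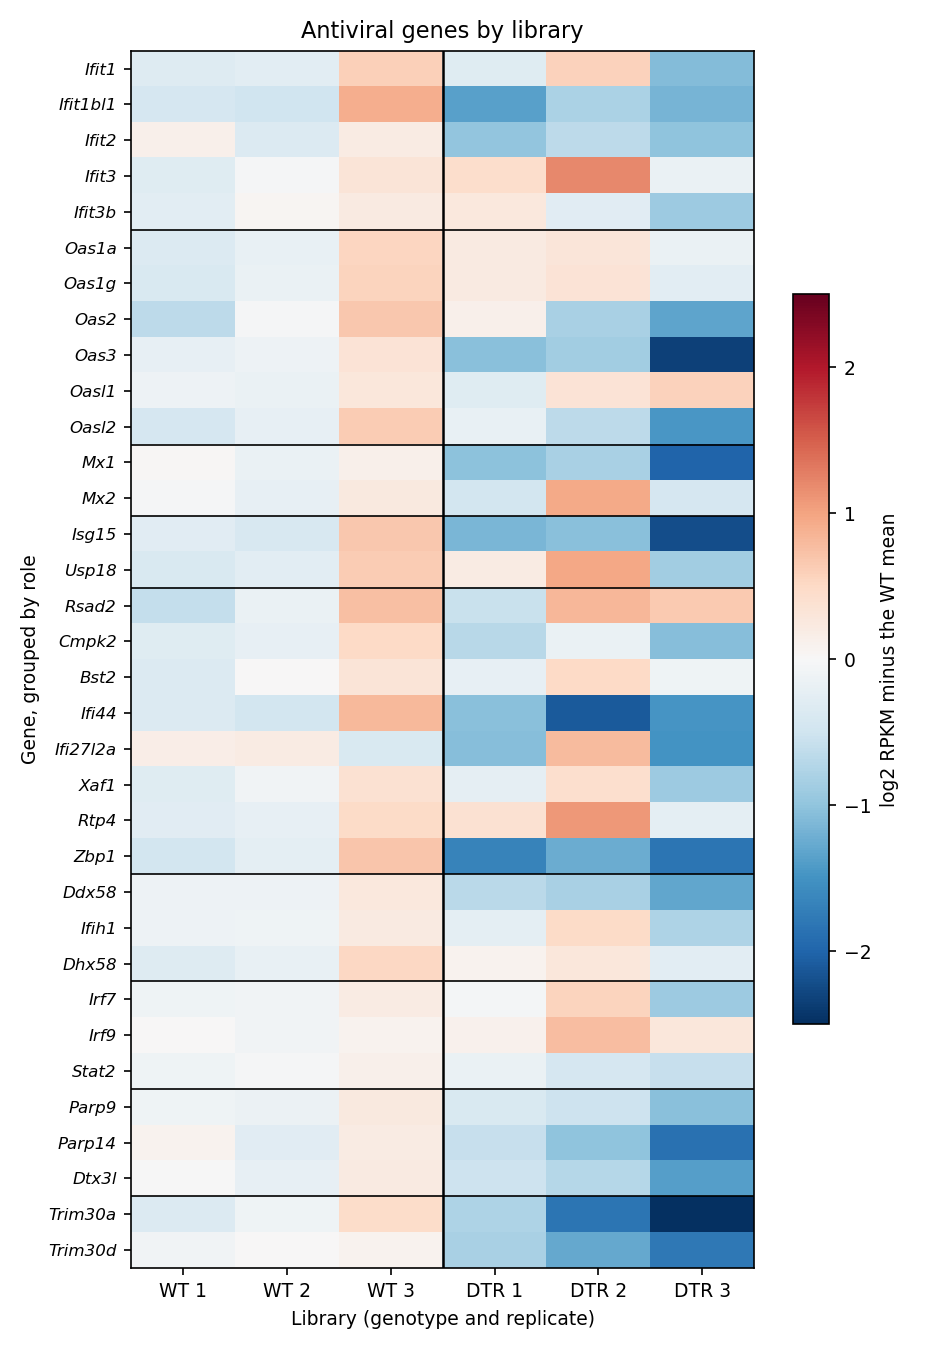
Log2 RPKM of the 34 antiviral genes (rows, grouped by role) in each library (columns), as the difference from the WT mean, blue for lower and red for higher. WT replicate 3 is the highest WT library in 33 rows, and DTR replicate 3 the lowest DTR library in 27.

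Interferon transcripts themselves were near the limit of detection. Of 21 interferon genes searched, 15 had 0 reads in every library, among them all 13 numbered interferon-α genes. Ifnb1, which encodes interferon-β, had 2 reads in DTR replicate 2 and 0 in the other libraries, where a count of 0 allows up to 3 reads, worth 0.0528 to 0.0654 RPKM. The interferon-λ genes Ifnl2 and Ifnl3 had 8 and 14 reads in WT replicate 3 and 0 in WT replicates 1 and 2. In DTR, Ifnl2 had 0 reads and Ifnl3 had 0, 2 and 2 reads in replicates 1, 2 and 3, and these genes are known close copies. Ifng had 12, 10 and 8 reads in WT and 0, 4 and 2 reads in DTR replicates 1, 2 and 3. None of the 21 passed the expression filter, so none was tested.

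No type I or type III receptor gene passed the test, where 8.74% of all tested genes were called lower and 9.54% higher. Of 6 receptor genes, 1 rose and none fell in limma (5 estimates above 0; at an unadjusted p of 0.05, 0 lower and 2 higher; with voom, 0 lower and 1 higher). Ifnar1 stood at 8.32, 7.29 and 8.76 RPKM in WT replicates 1, 2 and 3 and at 9.49, 15.9 and 10.96 RPKM in DTR replicates 1, 2 and 3, higher in each DTR library than in any WT library, and did not pass (log2 change 0.55, 95% interval 0.037 to 1.06; limma adjusted p = 0.110). Ifnar2 (log2 change 0.59, 95% interval -0.014 to 1.18; limma adjusted p = 0.135), Ifnlr1 (log2 change -0.28, 95% interval -0.73 to 0.17; limma adjusted p = 0.294), Il10rb (limma adjusted p = 0.440) and Ifngr2 (0.681) did not pass either. The receptor gene that rose was Ifngr1, of the interferon-γ receptor, at 46.4, 45.3 and 54.1 RPKM in WT replicates 1, 2 and 3 and at 72.8, 100.2 and 130.0 RPKM in DTR replicates 1, 2 and 3 (log2 change 1.02, SE 0.22; limma adjusted p = 0.0309).

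Genes of signalling and feedback moved in both directions. The phosphatase gene Ptpn6, which is enriched in blood cells, fell (log2 change -1.50, SE 0.26; limma adjusted p = 0.0199), and the phosphatase gene Ptpn1 rose (log2 change 0.68, SE 0.18; limma adjusted p = 0.0458). Ptpn11, a phosphatase of many growth factor receptors, did not pass (log2 change 0.47, 95% interval 0.13 to 0.81; limma adjusted p = 0.0607). The kinase genes Jak1 (log2 change 0.26, 95% interval -0.071 to 0.60; limma adjusted p = 0.204) and Tyk2 (log2 change -0.81, 95% interval -1.52 to -0.10; limma adjusted p = 0.0959) did not pass. None of these genes or of the receptors was called without WT replicate 1, 2 or 3 or without DTR replicate 3, and Ifngr1 was not called without DTR replicate 2. Of all 15563 tested genes, 76 to 106 were called lower and 76 to 101 higher without a WT library. Without DTR replicate 3 the counts were 523 and 487.

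Of 15 tested genes that lead from nucleic acid sensing to interferon, 6 fell (40%) and 1 rose (6.67%). Over all tested genes, 8.74% fell and 9.54% rose. The median log2 change of the 15 genes was -0.61. Mavs, the mitochondrial adaptor of RIG-I and MDA5, stood at 23.4, 18.7 and 20.6 RPKM in WT replicates 1, 2 and 3 and at 10.2, 2.44 and 3.52 RPKM in DTR replicates 1, 2 and 3. DTR replicates 2 and 3 were far below the rest and DTR replicate 1 was in between (log2 change -2.23, SE 0.50; limma adjusted p = 0.0328). Irf3, the factor that turns on interferon-β, stood at 16.9, 16.9 and 16.7 RPKM in WT replicates 1, 2 and 3 and at 12.1, 7.34 and 5.77 RPKM in DTR replicates 1, 2 and 3 (log2 change -1.07, SE 0.27; limma adjusted p = 0.0403). Also falling were the endosomal RNA receptor gene Tlr3 (log2 change -1.44), the endosomal chaperone gene Unc93b1 (-0.96), Irf8 (-0.98), a factor of myeloid and B cells, and Tmem173 (-1.03), which encodes the DNA-sensing adaptor STING, with limma adjusted p of 0.0187, 0.0216, 0.0172 and 0.0494. Traf6, a ubiquitin ligase of Toll-like receptor signalling, rose by a log2 change of 1.07 at the edge of the threshold, and its call held in 7 of 15 other settings. Without WT replicate 1, 2 or 3 none of these genes was called, and without DTR replicate 3 only 1. Of all tested genes, 0.488% to 0.681% were called lower without a WT library and 3.36% without DTR replicate 3.

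Interferon-stimulated genes outside the 34 showed calls in both directions. Of 55 tested, 15 fell (27.3%) and 2 rose (3.64%), against 8.74% and 9.54% of all tested genes, with a median log2 change of -0.50. Those that fell included Samhd1, which depletes nucleotides and restricts viruses, at 22.9, 24.3 and 29.3 RPKM in WT and 9.999, 4.96 and 6.44 RPKM in DTR (log2 change -1.89, SE 0.27; limma adjusted p = 0.0130), and Uba7, the activating enzyme for Isg15, at 21.3, 22.4 and 25.4 RPKM in WT and 8.08, 11.2 and 6.72 RPKM in DTR (log2 change -1.44, SE 0.21; limma adjusted p = 0.0133). The others were Ifi203, Trim34a, Trim5, Trim12c, Phf11b, Sp140, Sp110, Nmi, Sp100, Trim21, Slfn5, Helz2 and Pml, with log2 changes from -2.41 for Ifi203 to -0.65 for Pml. Both genes that rose encode membrane proteins that block virus entry. Ifitm1 stood at 7.49, 7.62 and 6.32 RPKM in WT and 11.96, 10.2 and 11.6 RPKM in DTR (log2 change 0.66, SE 0.14; limma adjusted p = 0.0273), and Ifitm2 at 17.1, 19.5 and 16.2 RPKM in WT and 25.5, 39.8 and 29.5 RPKM in DTR (log2 change 0.82, SE 0.19; limma adjusted p = 0.0333). Ifitm3, of the same family, had a log2 change of 0.56 and did not pass (limma adjusted p = 0.0513). None of the 55 was called without WT replicate 1, 2 or 3, where 0.488% to 0.681% of all tested genes were called lower. Without DTR replicate 3, 8 were called lower and 0 higher, against 523 and 487 of all 15563 tested genes. Without DTR replicate 1, 25 were called lower and 5 higher, against 2744 and 2861 of all tested genes.

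Nearly all interferon-γ target genes fell in the same libraries. Of 29 tested GTPase, chemokine and antigen processing genes, 26 fell (89.7%, against 8.74% of all tested genes) and none rose. At an unadjusted p of 0.05, 28 were lower and 0 higher, and voom called 27 lower and 0 higher. The median log2 change of this list was -1.76, against -0.49 for the antiviral genes. The difference between the lists was not tested. Irf1, the transcription factor of this programme, stood at 52.5, 46.8 and 55.8 RPKM in WT replicates 1, 2 and 3 and at 15.8, 24.1 and 12.3 RPKM in DTR replicates 1, 2 and 3 (log2 change -1.63, SE 0.25; limma adjusted p = 0.0154). The chemokine gene Cxcl9 had the largest change of the list, at 3.57, 3.60 and 4.52 RPKM in WT and 0.123, 0.0970 and 0.310 RPKM in DTR (log2 change -4.63, SE 0.45; limma adjusted p = 0.00565). The other 24 that fell had log2 changes from -3.93 for the MHC class II activator Ciita to -0.50 for the proteasome activator subunit Psme1. They were the guanylate-binding protein genes Gbp2, Gbp2b, Gbp3, Gbp4, Gbp5, Gbp6, Gbp7 and Gbp8, the GTPase genes Tgtp2, Iigp1, Igtp, Irgm1, Irgm2 and Ifi47, the chemokine genes Cxcl10 and Cxcl11, the immunoproteasome genes Psmb8, Psmb9 and Psmb10, and Psme1, Psme2, Tap2, Tapbp and Ciita of antigen processing and presentation. Gbp9, Nlrc5 and Tap1 did not pass (limma adjusted p = 0.0573, 0.0840 and 0.508). Without WT replicate 1, 2 or 3, limma called 3, 1 and 3 of these genes lower. In those fits 0.488%, 0.501% and 0.681% of all tested genes were called lower.

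**Figure D5:**
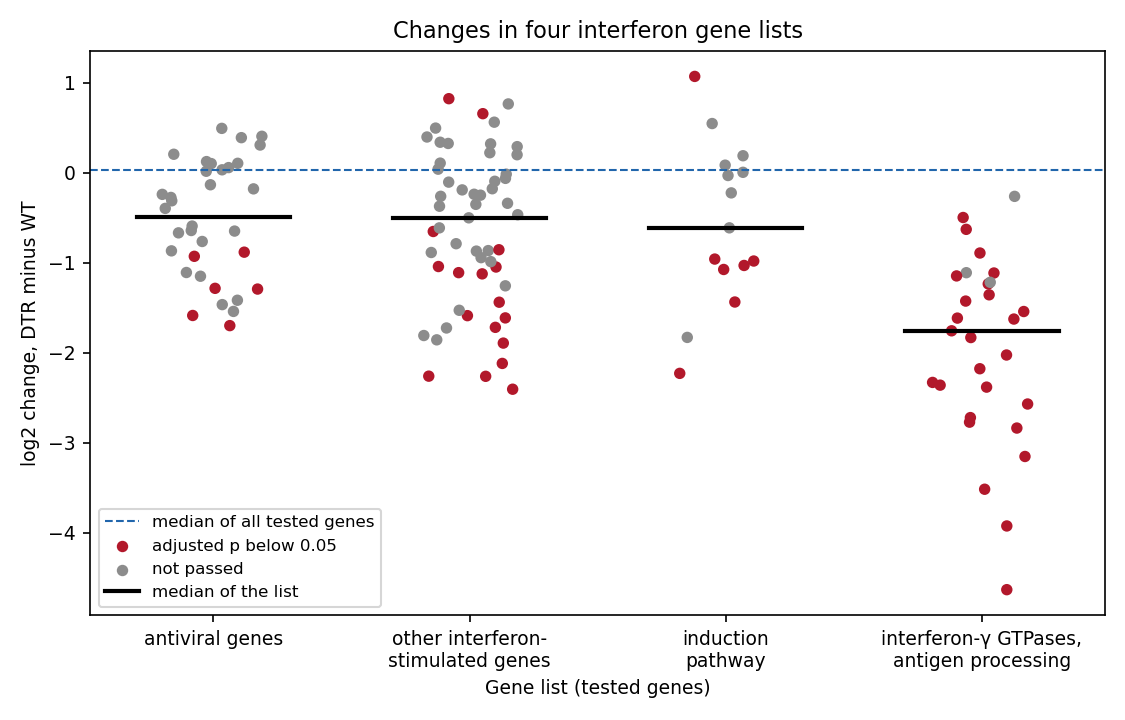
Log2 change, DTR minus WT, of each tested gene in 4 interferon lists, red where the adjusted p was below 0.05, with the list median as a black bar and the median of all tested genes (0.031) as a dashed line. The medians are -0.49, -0.50, -0.61 and -1.76 from left to right.

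Immune cells carry interferon-stimulated transcripts of their own, and their markers did not all go one way. For comparison with the counts below, 8.74% of all tested genes fell and 9.54% rose. Of 12 tested T cell and intraepithelial lymphocyte markers 7 fell and none rose (10 lower and 0 higher at an unadjusted p of 0.05; 9 lower and 0 higher with voom), and the summed level of all 13 was 264 to 418 RPKM in WT and 69.7 to 140.3 RPKM in DTR. The sum was highest in replicate 3 among the WT libraries and in replicate 3 among the DTR libraries. B and plasma cell markers summed to 1005 to 2542 RPKM in WT and 189 to 838 RPKM in DTR, with 2 of 9 tested falling. All 9 estimates lay below 0, with a median log2 change of -2.17, and 7 of the 9 lay entirely below WT in DTR. At an unadjusted p of 0.05, 8 were lower and 0 higher, and voom called 4 lower and 0 higher. Macrophage and dendritic cell markers summed to 256 to 295.4 and 189 to 200.4 RPKM, with 5 of 12 falling and 4 of the 12 estimates above 0. Of 8 tested markers of plasmacytoid dendritic cells, potent makers of interferon-α, Spib fell and none rose. Of the 8 estimates, 7 lay below 0, with 3 lower and 0 higher at an unadjusted p of 0.05. In DTR, 5 lay entirely below WT (62.5%, against 22.6% of all tested genes). Marker sums of 401 to 1118 RPKM in WT and 467 to 965 RPKM in DTR were nearly all Klk1. The defining marker Siglech had 30 to 44 reads in WT and 38, 0 and 4 reads in DTR replicates 1, 2 and 3. Neutrophil markers summed to 2.39 to 3.64 and 3.33 to 9.54 RPKM, with 1 of 5 falling and 1 rising. Of these 5, 3 lay entirely above WT in DTR and 2 entirely below, against 25.1% and 22.6% of all tested genes. Without any 1 of the WT libraries, 1 T cell marker, 0 or 1 B cell markers and 1 or 2 macrophage and dendritic cell markers were called lower. In those fits 0.488% to 0.681% of all tested genes were called lower. No marker on these lists was at 0 in any library except Siglech, S100a9, Cxcr2 and Ly6g. The part of these cells in the changes of the antiviral genes was not tested.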

How the data were processed

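The deposited values are log2 RPKM per gene and library, with gene lengths, a total of reads in genes per library and a normalization factor, a ratio that rescales that total. Per the submitters' processing notes, reads were aligned or counted on mm10 with a set of tools that names STAR, Subread, featureCounts and edgeR, and read quality was covered by FastQC and MultiQC. Tool versions and whether counting used strand are not given in the sources used, and reads of genes that overlap on opposite strands cannot be told apart. Tables of genes above given read depths were not used here. Removing a prior count of 0.25 from the unlogged values gave whole reads for 100% of values within a tolerance of 1e-06, summing to the deposited totals. Of read counts from 1 to 20, 73.5% were even, against 51.4% of counts of 1000 or more, so reads may include both mates of a pair and are not independent molecules. RPKM were computed from these reads without a prior. Floors of 3 reads cover counting error only.

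DTR and WT log2 RPKM were compared by the two-sided moderated test of limma 3.58.1 (R 4.3.3, trended prior variance) over 15563 genes with a mean log2 RPKM above -2, and Benjamini-Hochberg adjustment at 0.05 over all of them. Log2 changes are on the deposited scale, which includes the prior. Fold values are these log2 changes with the log undone, not ratios of mean RPKM. Columns were matched to samples by title or description. The sample titled WT2 carries the description of WT1, so the numbering of these WT libraries rests on their titles. No label states that the libraries come from different mice. The p-values then reflect only how much these samples vary, which may be technical. Positions come from GENCODE M21 (GRCm38), which matched 55394 of 55487 gene IDs. All members are named, and of the other interferon lists those that passed, with the 4 smallest p where fewer did, the receptors, Jak1, Tyk2 and Irf3, except for a gene that is not reported here. Named for other reasons after their values were seen were the genes that did not pass in the γ list, Ifitm3, Siglech, Spib, Krt18, Vil1 and the TRIM genes of the closing section. The members and lists were chosen with earlier results of these data known.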

Additional observations from a re-analysis of the deposited data

How the results depend on the processing

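The 15 other settings were voom on recovered reads, quantile normalization, median centring, a pseudocount of 0.1 or 1, testing with no filter or above a mean log2 RPKM of 0, a replicate block, no variance trend, and leaving out each library. No antiviral gene was called higher in any of them, and the 6 that fell kept their sign in all, while 11 of the 34 changed sign in at least 1. The count of antiviral genes called lower, 6, became 3 with no filter and 10 with voom, and ran from 0 to 11 when a library was left out (0 without WT replicate 1, 2 or 3, 11 without DTR replicate 1, 1 without DTR replicate 3). Trim30d kept its call in 12 of 15 settings, Zbp1 in 10 of 15, Ddx58 in 10 of 15, and Mx1, Ifit2 and Trim30a in 7 of 15 each. All tested genes called lower (1360) and higher (1485) ran from 76 to 2744 and from 76 to 2861 with a library left out. Other interferon-stimulated genes called lower (15) and higher (2) ran from 0 to 25 and from 0 to 5, and 1 was called higher with no variance trend. Replicate numbers give no stated pairing. The deviations of same-numbered libraries correlated at -0.011, -0.0024 and 0.165, against -0.123 to 0.114 for libraries with different numbers. These values show no clear pairing, but with 3 libraries per group they do not settle it. With the replicate block 1 antiviral gene, Trim30d, was called lower, as were 617 genes of all (544 higher) and 7 of the other interferon-stimulated genes (1 higher). The causes of these shifts were not tested. Genes with few reads, such as Ifi44, and the interferon genes are limited by depth.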

Other observations

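The TRIM genes around Trim30a on chromosome 7 were looked at after the values of Trim30a and Trim30d had been seen. GENCODE M21 lists 11 TRIM genes with a start within 1000000 bases of that of Trim30a, and 7 of them were tested. Of these, Trim34a, Trim5, Trim12c, Trim30a and Trim30d fell and Trim6 rose in limma, where 8.74% of all tested genes fell and 9.54% rose. Trim6, which encodes a ubiquitin ligase that promotes interferon signalling in human cells, stood at 0.646, 0.488 and 0.606 RPKM in WT replicates 1, 2 and 3 and 1.18, 9.44 and 6.65 RPKM in DTR replicates 1, 2 and 3 (log2 change 2.86, SE 0.75; limma adjusted p = 0.0456). Its nearest TRIM neighbour Trim34a went the other way, at 4.57, 5.32 and 5.62 RPKM in WT and 2.56, 0.865 and 0.559 RPKM in DTR (log2 change -2.26; limma adjusted p = 0.0362). Both genes differed most in DTR replicates 2 and 3 and least in DTR replicate 1. Trim12a, between Trim5 and Trim12c, was below WT in every DTR library and did not pass (log2 change -0.86; limma adjusted p = 0.0684). Of the calls with 1 library left out, those of Trim6, Trim34a, Trim12c and Trim30a held only without DTR replicate 1. None of the 6 calls held without WT replicate 1, 2 or 3, where 76 to 106 of all 15563 tested genes were called lower and 76 to 101 higher. Several of these genes are close copies, so reads may be split among them.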
